A study of Bubalus bubalis with 6 samples.

Results

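CircRNAs are closed RNA circles that form when the end of an exon is spliced back to the start of an upstream exon of the same transcript. The circRNAs described here are the exonic ones whose annotated ends enclose 10 or more exons. The rule that selected them used no counts: a row of the deposited circRNA table was taken where its type was exonic and its exon number was at least 10. This gave 793 of the 57308 circRNAs in the table, which are 1.68% of the 47089 exonic circRNAs, and they came from 535 host genes. Blood had been drawn from the jugular vein of Jianghuai buffaloes, a Chinese swamp buffalo breed, on day 25, and each animal gave 1 library. The 3 control animals (C-Buffalo) were not pregnant, and the 3 animals called P-Buffalo were. All animals were between 3 and 5 years old and had been given sodium D-chlorprostol, a prostaglandin analogue, for oestrus synchronisation. Only the P-Buffalo group was then inseminated, and its pregnancy was read later by ultrasound, so effects of pregnancy cannot be told apart from those of insemination. According to the methods of the study, ribosomal RNA was removed and linear RNA was digested with RNase R before paired-end sequencing, while the sample labels name an mRNA library kit.

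Back-splicing usually joins exons whose flanking introns are brought close to each other, and most exonic circRNAs hold only a few exons. Circles lack free ends, are therefore resistant to exonucleases such as RNase R, and are abundant in blood cells and platelets. A read across the back-splice junction shows where a circle opens and closes but not which of the enclosed exons it keeps, so the exon number used here is the number annotated between the ends. It says nothing of exons that may be skipped inside the circle. Coordinates are those of the buffalo assembly ASM312139v1, as deposited, on the plus (+) or minus (−) strand. Levels are given as reads, or as CPM, which are reads scaled to the size of the library with its TMM factor.

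The counts of all circRNAs in a library summed to between 815851 and 1298753. Where no read was found, up to 3 counts are still possible, or 2.31 to 3.68 CPM before scaling. These reads carry no molecular identifiers, so limits and intervals cover counting error only. C-Buffalo 2 stood apart from the other 5 libraries. Its scaling factor was 0.467 against 1.09 to 1.25, and 20.7% of its detected circRNAs had a single read, against 3.35% to 5.37%. Of the blood cell markers listed for this description, 15 of 18 erythroid, 11 of 13 platelet, 10 of 18 neutrophil and monocyte, 12 of 20 T and NK cell and 11 of 13 B cell genes had at least 1 exonic circRNA, and CD14, CSF3R, CD79A, CD79B and CD2 had none. The animals of a group were treated as replicates, and no batch is given in the sources used here. In bulk blood, fewer cells of a type and less RNA per cell cannot be told apart.

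Circles of many exons were rare, and most of them were read in a single library. From 10 to 13 exons their number fell: 296 members had 10 exons, 191 had 11, 107 had 12 and 61 had 13. Only 20 members, from 17 hosts, had 20 or more. On the other side of the limit, the 509 circRNAs of 9 exons had 11360 reads in all, against 4893 reads for the 296 of exactly 10. The 793 members together had 10086 reads, which was 0.181% of all exonic reads. A member had a median of 5 reads over the 6 libraries, 87 members had a single read, and 72 members had at least 20. The 10 members with the most reads held 31.7% of the reads of the class.

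The longest circle by annotation came from USP9X, a deubiquitinase gene. Its circRNA42950 enclosed 35 exons from 39985834 to 40054485 on NC_037569.1 (+) and had 3 reads, all in P-Buffalo 2. HERC1, which encodes a giant ubiquitin ligase, gave the next: circRNA33859 with 33 exons had 5 reads in P-Buffalo 1, and circRNA24257 with 29 exons had 2 reads in C-Buffalo 3. MYO9A, an unconventional myosin, gave circRNA33924 with 27 exons and 5 reads in P-Buffalo 1. Each of these 4 was therefore seen in 1 animal only and at a level near the counting limit. Of the 20 members with 20 or more exons, 19 were read in a single library. The exception was circRNA11469 of PICALM, with 20 exons and reads in 5 libraries.

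In genomic span the members ranged from 2844 bp, for circRNA35623 of TRAF7, to 469166 bp, for circRNA41200 of LOC102405871. The median span was 27902 bp, against 11429 bp for circRNAs of 4 to 9 exons and 3319 bp for those of 2 or 3 exons. Since the rule selected on exon number, a longer span follows from it. The introns next to the ends, which the rule did not use, had a median length of 5966.5 bp upstream and 4795.5 bp downstream. The same medians were 5099.5 and 4363 bp for 4 to 9 exons, 4476 and 3785 bp for 2 or 3 exons and 4057 and 3890 bp for 1 exon. Most members used ends that the table also gives for other circles. At least 1 end was shared with another exonic circRNA in 88.4% of the members, and both ends were shared in 57.1%. For circRNAs of 4 to 9 exons these shares were 87.1% and 45.8%, and for 2 or 3 exons 75.1% and 25.4%. For 9 exons alone they were 90.2% and 59.3%, above those of the members. Members that share an end or a host gene are not independent of each other.

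**Figure D1:**
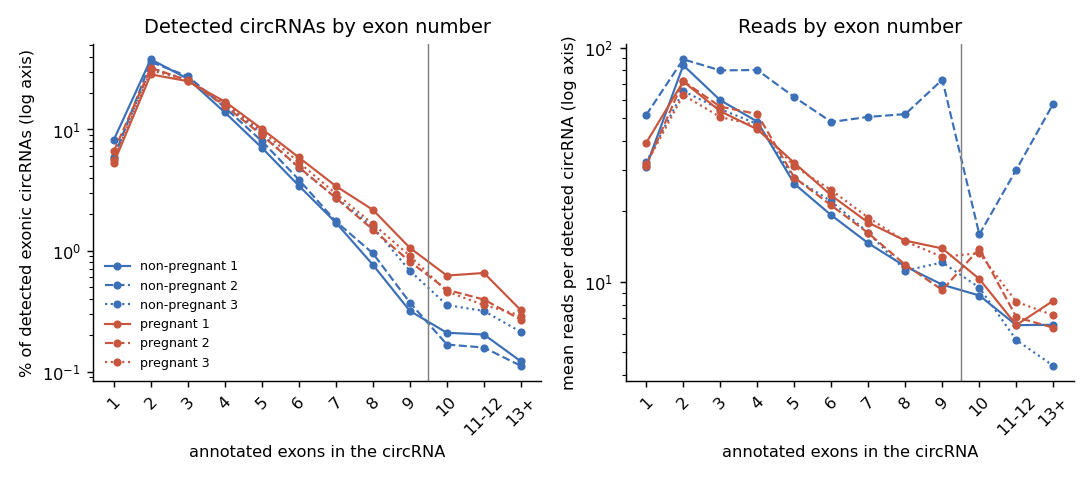
Left, the percentage of a library's detected exonic circRNAs (y axis, log scale) with each number of annotated exons (x axis). Right, mean reads per detected circRNA (y axis, log scale). Each line is 1 library, blue for non-pregnant and red for pregnant, and the grey vertical line marks the limit of 10 exons. The shares fall from 2 to 10 exons in every library. On the left the 3 pregnant libraries lie above the 3 non-pregnant ones at 6 exons and from 9 exons on. On the right C-Buffalo 2 (blue dashes) lies above the other libraries.

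A member detected in a library had on average fewer reads than a detected circle of the shorter classes in the same library. Mean reads per detected member were 7.41, 31.8 and 6.87 in C-Buffalo 1, 2 and 3 and 8.36, 9.74 and 10.05 in P-Buffalo 1, 2 and 3. The value of C-Buffalo 2 lay far above the rest. For circRNAs of 4 to 9 exons the means were 35.3, 68.5 and 34.1 in the C-Buffalo libraries and 33.7, 35.9 and 34.9 in the P-Buffalo libraries, above those of the members in all 6. For 9 exons alone they were nearer, at 9.72, 73.0 and 12.1 in C-Buffalo and 13.9, 9.23 and 12.8 in P-Buffalo. In P-Buffalo 2 the mean of 9 exons lay below that of the members. The log2 ratio of the means averaged −1.89 ± 0.43 (SD, n = 6 libraries), or 0.269-fold, and was below 0 in 6 of 6 libraries (exact paired permutation test, two-sided, p = 0.03125, the smallest this design can give; adjusted p = 0.0402 over 9 comparisons of classes). The same test gave −2.68 against 2 or 3 exons and −1.77 against 1 exon, with the same p-values. Taken by the median reads of each class, a measure added after seeing the data, the log2 ratio against 4 to 9 exons was smaller, at −0.79 (exact paired permutation test, p = 0.03125).

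Members were also seen again in a second animal less often than the shorter classes taken as a whole. Of the members, 644 (81.2%) were read in 1 library, 96 in 2, 24 in 3, 16 in 4, 9 in 5 and only 4 in all 6. For 4 to 9 exons 57.0%, and for 2 or 3 exons 50.4%, were read in 1 library, and 1057 of 17619 (5.999%) and 11.3% in all 6, against 0.504% of the members. At the limit itself, 73.5% of the circRNAs of 9 exons were read in 1 library, against 75.3% of those of exactly 10. In all 6 libraries it was 0.786% against 1.35%. Within a library, the share of detected members that had a read in any other library was 54.4%, 42.6% and 38.0% in C-Buffalo 1, 2 and 3 and 33.0%, 33.9% and 45.03% in P-Buffalo 1, 2 and 3. For 4 to 9 exons it ran from 67.7% to 81.0%, so the ranges of the classes did not meet. The difference averaged −32.4 ± 4.46 percentage points (SD, n = 6; exact paired permutation test, p = 0.03125, adjusted p = 0.0402), and it was −38.4 points against 2 or 3 exons. Level and detection move together, so the share was also taken among circRNAs with exactly 2 reads in the library. There the difference from 4 to 9 exons was −20.0 ± 13.6 points and negative in 5 of 6 libraries (exact paired permutation test, p = 0.0625, adjusted p = 0.0703), which did not pass. Against 2 or 3 exons it was −25.5 points (exact paired permutation test, p = 0.03125, adjusted p = 0.0402), from 5 to 37 members per library. Against 1 exon it was −17.1 ± 22.3 points and negative in 5 of 6 libraries (exact paired permutation test, p = 0.156, adjusted p = 0.156), which did not pass either.

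**Figure D2:**
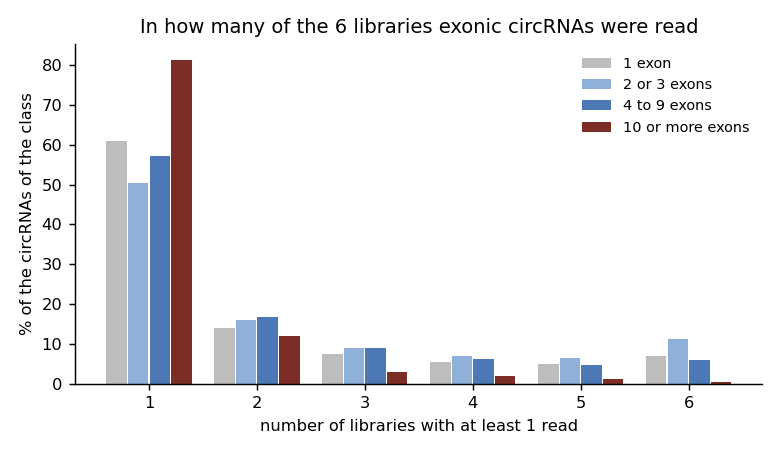
Percentage of the circRNAs of each exon class (y axis) that had at least 1 read in 1, 2, 3, 4, 5 or 6 of the 6 libraries (x axis). The members (dark red) reach 81.2% at 1 library and 0.504% at 6, where circRNAs of 2 or 3 exons reach 50.4% and 11.3%.

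The 4 members read in every animal all had 10 exons and came from MINDY3, PICALM, VPS50 and RIF1. MINDY3 encodes a deubiquitinase, and its circRNA11995, from 53407358 to 53460044 on NC_037558.1 (+), had 39, 60 and 155 reads in C-Buffalo 1, 2 and 3 and 113, 78 and 114 in P-Buffalo 1, 2 and 3. It was the member with the most reads among these 4, and its groups overlapped. VPS50 (syndetin) belongs to a tethering complex of recycling endosomes. Its circRNA10542 had 10, 3 and 47 reads in C-Buffalo and 48, 50 and 33 in P-Buffalo, so that C-Buffalo 3 lay within the range of the pregnant animals. RIF1 acts in DNA repair and in the timing of replication, and its circRNA8092, from 97280238 to 97288474 on NC_037546.1 (−), had 7, 2 and 21 reads in C-Buffalo and 28, 24 and 16 in P-Buffalo. The read counts overlapped, and the CPM, at 8.73 ± 5.54 and 18.5 ± 3.83 (SD, n = 3 per group), did not.

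The members with the highest mean CPM came in large part from C-Buffalo 2 alone. LRRFIP1, which encodes a nucleic acid binding protein, gave circRNA19162 with 16 exons, from 116679276 to 116720577 on NC_037550.1 (+). It had 445 reads in C-Buffalo 2 and 0 in the other 5 libraries. SNX14, a sorting nexin gene, gave circRNA19416 with 15 exons and 229 reads in C-Buffalo 2 alone. ALG9, a mannosyltransferase of N-glycan assembly, gave circRNA18180 with 196 reads there and 1 in C-Buffalo 3. TLE4, a transcriptional co-repressor, gave circRNA16208 with 175 reads, and VPS50 gave circRNA19497 with 111 reads, both only there. Members read in C-Buffalo 2 and in no other animal held 80.0% of the member reads of that library (Wilson 95% confidence interval 77.9 to 81.9). In the other 5 libraries the same share was 31.5% to 41.3%. No member read in only 1 of those 5 libraries had more than 52 reads. All reads of these 5 circles but 1 thus came from a single library.

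**Figure D3:**
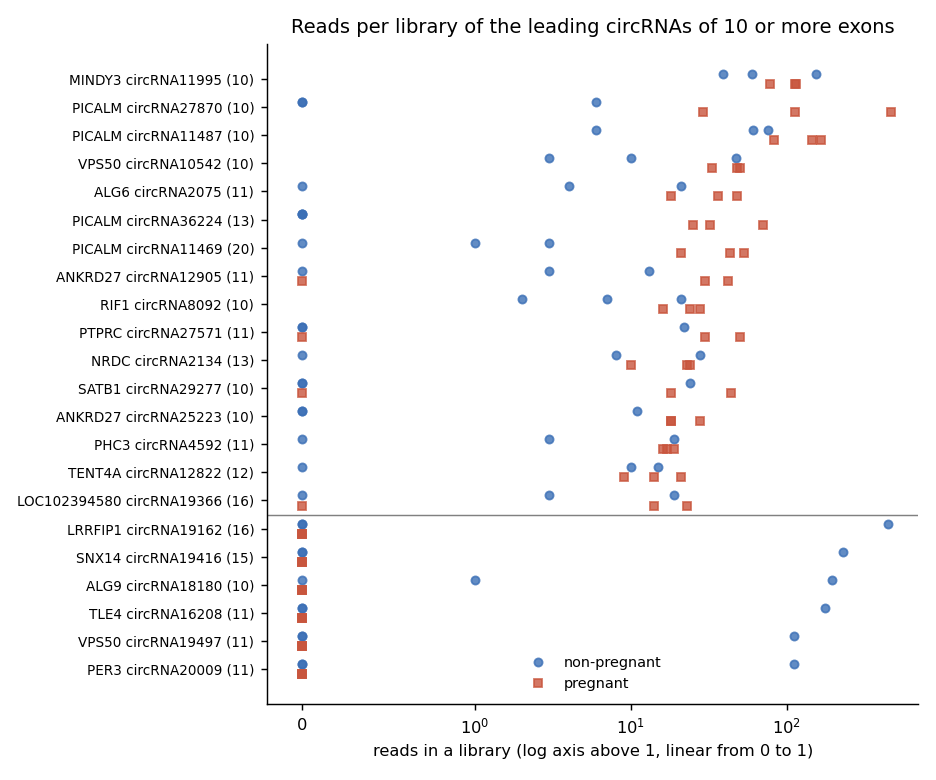
Reads per library (x axis, linear from 0 to 1 and log above) of the 16 members that passed the filter on low counts (above the line) and of 6 members with high levels in 1 library (below it), named with the exon number in brackets. Blue circles are the 3 non-pregnant and red squares the 3 pregnant libraries. PICALM circRNA36224, circRNA27870 and circRNA11469 show no overlap of the groups, MINDY3 circRNA11995 overlaps, and LRRFIP1 circRNA19162 stands at 445 reads in 1 non-pregnant library and at 0 in the rest.

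Long circles made up a larger part of the detected exonic circRNAs in each pregnant animal than in any non-pregnant one. In C-Buffalo 1, 2 and 3, 79 of 14804, 47 of 10749 and 187 of 21144 detected exonic circRNAs had 10 or more exons, which was 0.534%, 0.437% and 0.884%. In P-Buffalo 1, 2 and 3 there were 303 of 18993, 254 of 22338 and 171 of 15483, or 1.595%, 1.14% and 1.10%. The Wilson 95% confidence interval of the highest non-pregnant library, 0.767% to 1.02%, overlapped that of the lowest pregnant library, 0.952% to 1.28%. The means were 0.618 ± 0.235% and 1.28 ± 0.274% (SD, n = 3), and the groups did not overlap (exact permutation test, two-sided, p = 0.1, the smallest that 3 against 3 animals can give; adjusted p = 0.325 over 13 comparisons). With every library thinned to 815851 counts the shares were 0.517%, 0.393% and 0.847% against 1.57%, 1.10% and 1.10%. With C-Buffalo 2 left out the difference was 0.570 in place of 0.661 percentage points.

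The difference between the groups changed step by step with exon number. The share of detected exonic circRNAs in pregnant relative to non-pregnant animals was 0.873 for 1 exon, 0.862 for 2 and 0.957 for 3. It was 1.083 for 4 exons, 1.19 for 5, 1.33 for 6, 1.47 for 7, 1.62 for 8 and 2.02 for 9. At 10 exons it was 2.12, at 11 or 12 exons 2.07 and at 13 or more 1.97. For detected circRNAs the ratios thus stayed close to each other from 9 exons on. For reads they did not, at 1.21 for 9 exons, 2.89 for 10, 1.69 for 11 or 12 and 1.14 for 13 or more. For the neighbouring class of 4 to 9 exons the shares were 30.9 ± 4.23% and 37.1 ± 2.51% (exact permutation test, p = 0.2), and for 2 or 3 exons 61.8 ± 3.56% and 55.8 ± 2.11% (exact permutation test, p = 0.1), with n = 3 per group and adjusted p-values of 0.371 and 0.325. No test here could pass 0.05.

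By reads the same order was less even. Members took 0.0662%, 0.178% and 0.124% of the exonic reads in C-Buffalo 1, 2 and 3 and 0.270%, 0.213% and 0.236% in P-Buffalo 1, 2 and 3 (0.123 ± 0.0560 and 0.240 ± 0.0288, SD, n = 3; exact permutation test, p = 0.1, adjusted p = 0.325). The groups did not overlap. PICALM alone gave 0.804% of the member reads in C-Buffalo 2 and 32.3% in P-Buffalo 2. Without PICALM, an alternative chosen after seeing the data, the difference was 0.0779 in place of 0.117 percentage points and the groups overlapped (exact permutation test, p = 0.2). At a limit of 9 exons it was 0.156 points, with C-Buffalo 2 (0.526%) above P-Buffalo 2 (0.357%), and at a limit of 12 exons 0.0168 points, so that the groups overlapped at both (exact permutation tests, p = 0.3 and p = 0.5). Among the cell markers, the summed level of exonic circRNAs of the 13 platelet genes was lower in all P-Buffalo libraries, at 1181 to 1867 CPM, than in the C-Buffalo libraries, at 2157 to 6590 CPM. The ranges of the other 4 marker lists overlapped. The part of cell composition in the shares of long circles was not tested.

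**Figure D4:**
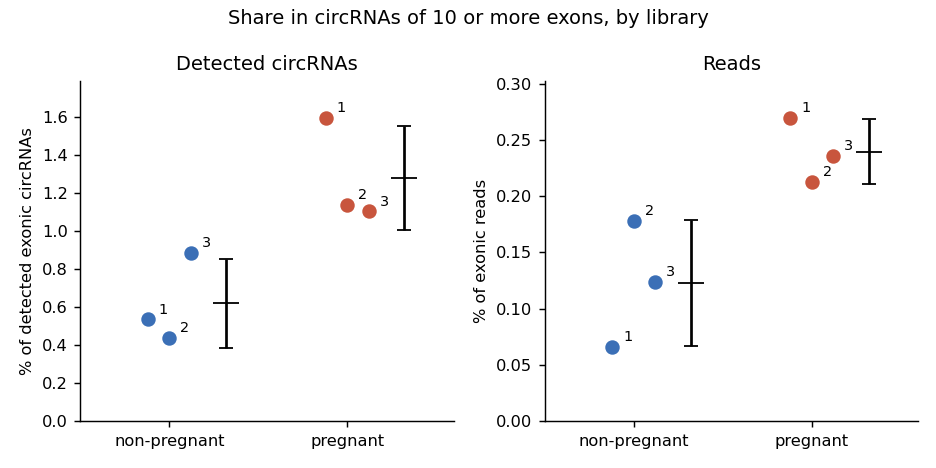
Percentage of detected exonic circRNAs (left) and of exonic reads (right) that belonged to circRNAs of 10 or more exons (y axes). Points are single libraries with their replicate number, bars the mean ± SD of 3 libraries. Pregnant libraries lie at 1.10% to 1.595% of detected circRNAs and non-pregnant ones at 0.437% to 0.884%.

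Most members had reads in 1 group only, and 81.2% of them in a single library. Of the 793 members, 515 (64.9%) were read in pregnant animals only, where the share over all exonic circRNAs was 36.7%, and 185 (23.3%) in non-pregnant animals only, where it was 24.8%. Both groups had reads of 93. Of the members, 50 (6.31%) were read in at least 2 animals, all of them pregnant, against 5.08% of the exonic circRNAs. Only 6 (0.757%) were read in at least 2 animals that were all non-pregnant, against 2.30%. In all 3 pregnant and no non-pregnant animals there were 7 (0.883%), a share near the 0.767% over all exonic circRNAs, and the reverse was seen for 0 members and for 0.217% of the exonic circRNAs. These 7 came from PICALM, HAUS6, GPCPD1, EXOC2 with a pair of circles, PDE5A and USP31.

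Single members were then compared between the groups with edgeR's quasi-likelihood test. The filter on low counts left 8261 circRNAs of the whole table and only 16 of the 793 members, so this fit says nothing of the other 777. The filter asks for about 10 reads in at least 3 libraries. Of the 16 members, 12 reached that level in at most 1 C-Buffalo library. In no C-Buffalo library was it reached by 4, and in no P-Buffalo library by 0. For these 4 the direction was set by the filter, and the counts that follow are given as a description. No member passed an adjusted p of 0.05 (Benjamini-Hochberg) with a change of at least 1 on the log2 scale in either direction, as was the case for all 8261 circRNAs, of which 0% were called. At an unadjusted p under 0.05, 3 of the 16 members were higher in pregnant animals, where the share over all circRNAs tested was 1.43%, and 0 were lower, where it was 2.46%. All 3 are among these 4. Over all 793 members without a filter, 10 were higher and 7 lower at this p, and with DESeq2 8 were higher and 3 lower. Without a filter these were 2.144% of the members, against 3.701% of all 57308 circRNAs. With DESeq2 they were 1.387%, against 1.572%. Both directions together, the members thus showed no excess there. Of all circRNAs, 601 were higher and 1520 lower without a filter, and 370 and 531 with DESeq2. The CPM of the groups did not overlap for 6 of the 16, all higher in pregnant animals. These 6 include the 4 whose direction the filter had set. Over all circRNAs tested 8.16% were placed so, and 3.87% the other way. These 6 were 4 circles of PICALM and 1 each of ANKRD27 and RIF1, so they are not 6 independent cases.

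PICALM, which encodes a clathrin assembly protein that shapes endocytic vesicles, was the host with the most members. It gave 14 of the 793 members, with 10 to 20 exons, 1609 reads in all and 16.0% of the reads of the class. The 14 lay between 85265627 and 85320504 on NC_037549.1 (+). The end at 85320504 was used by 9 of them, and by 16 exonic circRNAs in all. The start at 85265627 was used by 4, and circRNA11469 joined this start to this end. Still the long circles were a small part of what PICALM gave, which was 89447 exonic reads from 74 exonic circRNAs.

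The 3 members with the smallest unadjusted p all came from PICALM. circRNA36224, with 13 exons from 85296272 to 85320504, had no reads in C-Buffalo and 71, 32 and 25 reads in P-Buffalo 1, 2 and 3. Its level was at least 33.8-fold higher in pregnant animals, computed against 3 counts over the C-Buffalo group (edgeR, unadjusted p = 0.0017, adjusted p = 0.983). The table also holds circRNA20126, whose start lies 1 bp further at 85296273 and which ends at the same base. It had 0, 2 and 9 reads in C-Buffalo 1, 2 and 3 and none in P-Buffalo, so that, with both starts counted as 1 circle, it was read in C-Buffalo 2 and 3 as well. Summed, the pair gave a log2 fold change of 3.20 ± 1.204 (SE; edgeR, adjusted p = 0.830).

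circRNA27870 of PICALM, with 10 exons from 85265627 to 85298653, had 0, 0 and 6 reads in C-Buffalo and 29, 466 and 113 in P-Buffalo. The groups did not overlap, and P-Buffalo 2 held most of the reads, with a mean of 1.43 ± 2.48 CPM against 154 ± 157 CPM (SD, n = 3). Its log2 fold change was 6.43 ± 1.71 (SE; edgeR, unadjusted p = 0.0045, adjusted p = 0.983), and it was 10.3 without C-Buffalo 3, the only C-Buffalo library with reads. circRNA11469 of PICALM, with 20 exons, had 3, 0 and 1 reads in C-Buffalo and 21, 53 and 43 in P-Buffalo, again without overlap. The means were 1.18 ± 1.46 and 32.2 ± 13.3 CPM (SD, n = 3), and the log2 fold change was 4.505 ± 1.29 (SE; edgeR, unadjusted p = 0.0069, adjusted p = 0.983). The most even of the PICALM members was circRNA11487, with 10 exons from 85301234 to 85320504 and 61, 6 and 76 reads in C-Buffalo against 83, 165 and 145 in P-Buffalo. Only C-Buffalo 2 was far below the rest, and the log2 fold change of 1.37 ± 0.93 did not pass (SE; edgeR, unadjusted p = 0.174, adjusted p = 0.983).

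Summed over its 14 members, PICALM had 73, 12 and 115 reads in C-Buffalo and 274, 799 and 336 in P-Buffalo, and every pregnant animal lay above every non-pregnant one. The log2 fold change of the sum was 2.69 ± 0.73 (SE; edgeR, unadjusted p = 0.0020, adjusted p = 0.921). As a share of all exonic reads of PICALM the long circles were 0.779%, 0.0803% and 2.17% in C-Buffalo 1, 2 and 3 and 3.09%, 2.14% and 2.47% in P-Buffalo 1, 2 and 3. By that share P-Buffalo 2 lay just below C-Buffalo 3, and their Wilson 95% confidence intervals, 2.00% to 2.29% and 1.81% to 2.60%, overlapped. P-Buffalo 2 also held the most exonic reads of PICALM, 37356 against 5299 to 14947 in the others.

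**Figure D5:**
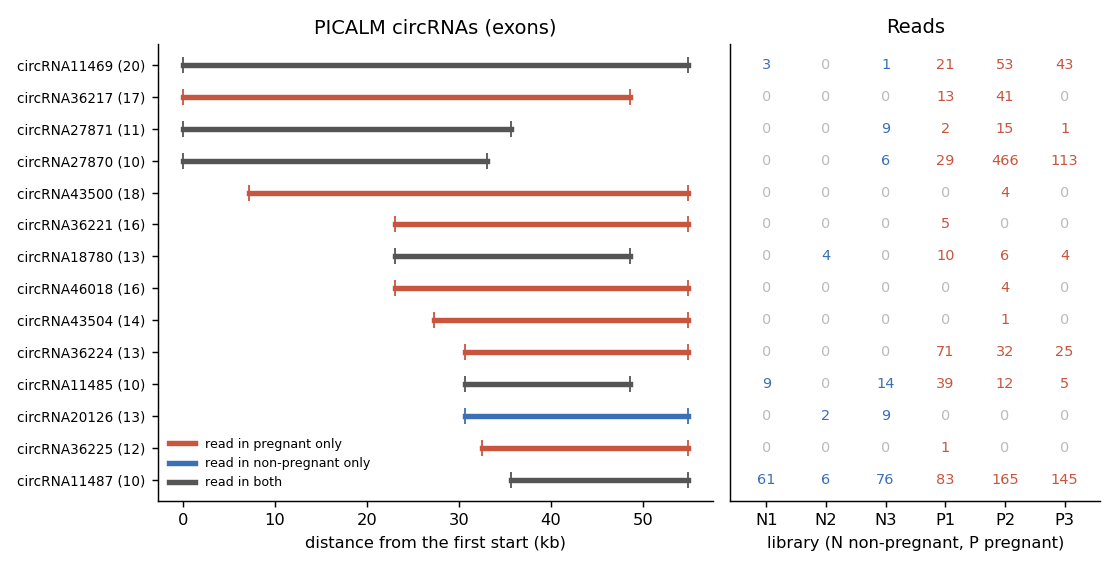
Left, the 14 PICALM circRNAs of 10 or more exons as lines from start to end, in kb from the first start (x axis), with the exon number in brackets. Red lines were read in pregnant, blue in non-pregnant and grey in both kinds of animals. Right, reads of each in the 6 libraries (N, non-pregnant; P, pregnant). The end shared by 9 circles lies at the right edge, and circRNA11487 is the only one with reads in all 6 libraries.

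Since single members had few reads, the reads of all members of a host were also summed. The sums of 17 of the 535 hosts passed the filter, among 4535 sums over all hosts and classes of circRNAs. None passed the adjusted p in edgeR's quasi-likelihood test, as for all sums tested (0%). At an unadjusted p under 0.05, 3 of the 17 were higher in pregnant animals, against 0.992% of all sums, and 1 was lower, against 4.28%. The higher ones were PICALM, HAUS6 and EXOC2. The sums of HAUS6 and EXOC2 passed the filter through P-Buffalo libraries alone, so their direction was set by it. HAUS6, a subunit of the augmin complex that branches spindle microtubules, had a pair of members with 0, 0 and 8 reads in C-Buffalo and 38, 19 and 42 in P-Buffalo, without overlap (log2 fold change 3.69 ± 1.54, SE; edgeR, unadjusted p = 0.0293, adjusted p = 0.921). EXOC2, a subunit of the exocyst that tethers secretory vesicles to the plasma membrane, had 4 members with 4, 0 and 2 reads in C-Buffalo and 46, 16 and 21 in P-Buffalo, also without overlap (log2 fold change 3.58 ± 1.52, SE; edgeR, unadjusted p = 0.0316, adjusted p = 0.921). With each library left out in turn, the unadjusted p of edgeR stayed between 0.0016 and 0.028 for PICALM, but it rose above 0.05 for HAUS6 without C-Buffalo 1, P-Buffalo 1 or P-Buffalo 3, to at most 0.107, and for EXOC2 without C-Buffalo 3, P-Buffalo 1 or P-Buffalo 3, to at most 0.170.

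ANKRD27, an exchange factor for a Rab GTPase of endosomes, followed. It had 4 members with 13, 3 and 32 reads in C-Buffalo and 84, 54 and 61 in P-Buffalo (log2 fold change 2.03 ± 1.02, SE; edgeR, unadjusted p = 0.0646, adjusted p = 0.930). The groups did not overlap. Its member with the smallest p, circRNA25223 with 10 exons from 42880461 to 42891629 on NC_037562.1 (−), had 0, 0 and 11 reads in C-Buffalo and 28, 18 and 18 in P-Buffalo. This circle passed the filter through P-Buffalo libraries alone, so the filter set its direction. Its log2 fold change of 2.57 (edgeR, unadjusted p = 0.154, adjusted p = 0.983) was 7.202 (unadjusted p = 0.0153) without C-Buffalo 3, the only C-Buffalo library with its reads. With any other library left out, the unadjusted p of edgeR was 0.204 to 0.302. The sum that was lower was that of LRRFIP1, with 0, 445 and 8 reads in C-Buffalo and 14, 0 and 17 in P-Buffalo. Its log2 fold change of −4.55 ± 1.79 (SE; edgeR, unadjusted p = 0.0214, adjusted p = 0.921) was 1.65 (unadjusted p = 0.514) without C-Buffalo 2, so its direction was set by that library. The sum of VPS50, with 10, 115 and 47 reads in C-Buffalo and 49, 50 and 37 in P-Buffalo, likewise had its highest value in C-Buffalo 2. PTPRC, the leukocyte phosphatase CD45, had 0, 1 and 22 reads in C-Buffalo and 38, 50 and 19 in P-Buffalo. Its read counts overlapped and its CPM did not, and it did not pass (log2 fold change 2.21 ± 1.40, SE; edgeR, unadjusted p = 0.135, adjusted p = 0.935). Without C-Buffalo 3, which held nearly all of its C-Buffalo reads, the log2 fold change was 5.21 (edgeR, unadjusted p = 0.0136). With any other library left out, the unadjusted p of edgeR was 0.153 to 0.266.

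Among the hosts, 389 gave 1 member, 80 gave 2 and 66 gave 3 or more. The 535 hosts were rich in circRNAs of all sizes, with a median of 16 exonic circRNAs and 887 exonic reads, against 3 and 52 for the other 7371 exonic hosts. Only 13 of the hosts had no exonic circRNA under 10 exons. Within a host the members took a median of 0.928% of the exonic reads, and in 279 hosts less than 1%. They took more than 50% in 29 hosts, of which 4 had at least 20 member reads. For these, the single circle of RIF1 had 98 of 154 exonic reads, the pair of CEP295, a centriole protein, 83 of 111, the 3 of ITGAV, the integrin alpha-V chain, 31 of 41, and the 3 of LOC102394580, an uncharacterised protein, 107 of 201. Next by reads came the circle of LOC102394124, described as ceramide synthase 5, with 16 of 30, and the 3 of ARHGEF10L, a guanine nucleotide exchange factor, with 15 of 18.

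After PICALM, the hosts with the most members had many different long circles of few reads each. LOC102411048, described in the table as multidrug resistance-associated protein 4-like, had 8 members of 10 to 19 exons with 8, 0 and 7 reads in C-Buffalo and 7, 86 and 2 in P-Buffalo. P-Buffalo 2 stood out, with 52 reads of circRNA44129 (12 exons), which no other library held. TBCK, which encodes a TBC domain protein of Rab signalling, had 7 members and 31 reads, with none in C-Buffalo 1 and 2. The ubiquitin ligases HERC2, with 6 members of up to 17 exons, and UBR4, with 5 of up to 26, had 41 reads each, none of them in C-Buffalo 1 or 2. OSBPL1A, an oxysterol-binding protein gene, had 5 members and 35 reads spread over 5 libraries. VPS8, a subunit of the endosomal CORVET tether, had 5 members and 29 reads, all in P-Buffalo 2 and 3. VPS35L, a subunit of the retriever complex that recycles cargo from endosomes, had 5 members and 15 reads, with none in C-Buffalo 1 and 2 or P-Buffalo 3.

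In gene lists that had been drawn up with earlier results of these data known, the list of vesicle traffic genes held the most long circles. Over all exonic hosts, 6.77% gave a member. Of 33 vesicle traffic genes with an exonic circRNA 16 did, with 43 members and 82, 241 and 130 reads in C-Buffalo and 298, 857 and 372 in P-Buffalo. PICALM and, in C-Buffalo 2, SNX14 gave most of these. The list had 4 of the 16 tested members, all of PICALM, and among them the 3 with an unadjusted p under 0.05, whose direction the filter had set. Another of its members, circRNA47429 of WDFY3, an autophagy adaptor with 11 exons in the circle, had 12 reads in P-Buffalo 3 and none elsewhere. None of the other lists had a member that passed the filter on low counts, so no test was made there.

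Of the giant and HECT ubiquitin ligases 7 of 18 genes gave a member, with 22 members in all. They had 0, 0 and 20 reads in C-Buffalo and 45, 24 and 31 in P-Buffalo, where the lowest pregnant library lay just above the highest non-pregnant one. HERC2 circRNA41887 had 1 and 19 reads in P-Buffalo 2 and 3, UBR4 circRNA47742 had 10 in P-Buffalo 3, and UBE3C circRNA36014 had 9 in P-Buffalo 1. Nuclear transport receptors and nucleoporins had 11 of 27 genes and 14 members, with 3, 0 and 30 reads in C-Buffalo and 8, 4 and 21 in P-Buffalo, and the groups overlapped. The import receptor IPO11 gave circRNA49094 with 10 reads in P-Buffalo 3. Of the nuclear pore genes, NUP153 gave circRNA7717 with 3 reads in C-Buffalo 1 and 8 in P-Buffalo 1, and NUP160 gave circRNA26284 with 6 in C-Buffalo 3 and 5 in P-Buffalo 3.

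Chromatin modifiers and remodellers gave members from 12 of 46 genes, 17 in all, with 12, 0 and 9 reads in C-Buffalo and 42, 12 and 6 in P-Buffalo. The groups overlapped here too. BRWD1, a bromodomain protein, gave circRNA33258 with 4 and 6 reads in P-Buffalo 1 and 3, the remodeller CHD2 gave circRNA35126 with 10 in P-Buffalo 1, and the acetyltransferase EP300 gave circRNA2973 (14 exons) with 6 in C-Buffalo 1. Centrosome and motor proteins had 6 of 35 genes and 10 members, led by HAUS6 circRNA21880 (0, 0 and 8 reads in C-Buffalo, 18, 8 and 23 in P-Buffalo) and CNTRL circRNA2919 with 10 reads in C-Buffalo 1. Of the DOCK exchange factors and Ral GAPs 4 of 12 had a member each. DOCK2, an activator of Rac in leukocytes, had 14 reads of circRNA22755 in C-Buffalo 3 and 2 in P-Buffalo 1. DOCK10 circRNA34813 had 8 reads in P-Buffalo 1. Cytoskeleton linkers had 4 of 19 genes and 7 members, among them IQGAP1 circRNA29187 with 11 reads in C-Buffalo 3, VCL circRNA3744 with 8 in C-Buffalo 1 and SYNE1 circRNA31221 with 5 in P-Buffalo 1.

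None of the 33 genes on the DNA damage and repair list that had an exonic circRNA gave a circle of 10 or more exons, but repair genes that are not on this list did, among them RIF1 and the genes TOPBP1 and CHEK2, with 7 reads in P-Buffalo 3 and 2 in P-Buffalo 1. None of the 17 interferon-stimulated genes matched by symbol gave one either, while LOC102415279, described as probable HERC6 and not matched to the list, gave circRNA37070 (11 exons) with 6 reads in P-Buffalo 1. The blood cell markers had few. Platelet genes gave 4 members from 4 of 11 genes, including F13A1 circRNA17692 with 4 reads in C-Buffalo 2 and ITGB3 circRNA28472 (14 exons) with 5 in C-Buffalo 3. The myeloid integrin ITGAM gave circRNA48020 (15 exons) with 8 reads in P-Buffalo 3. FYN, a kinase of T cell signalling, gave circRNA46126 with 6 reads in P-Buffalo 3, the erythroid membrane gene EPB41 gave circRNA42111 with 4 in P-Buffalo 2, and none of the 11 B cell genes gave any. Most of these circles were read in 1 animal.

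Genes described as multidrug resistance-associated protein 4-like, a group of similar transporter genes, gave 36 members from 14 of 47 hosts. They had 26, 3 and 10 reads in C-Buffalo and 37, 172 and 50 in P-Buffalo, without overlap, and P-Buffalo 2 held most. Of these members 32 were read only in pregnant animals and 3 only in non-pregnant ones, but 31 of the 36 were read in a single library. Over all circRNAs of 10 or more exons, 64.9% were read only in pregnant and 23.3% only in non-pregnant animals. Over all exonic circRNAs it was 36.7% and 24.8%. LOC102412250 circRNA44838 had 26 reads, all in P-Buffalo 2, and LOC112577712 circRNA34038 had 12 in P-Buffalo 1 and 6 in P-Buffalo 3. None of the 36 passed the filter. Reads of near-identical genes may be split between them, so the assignment to single members of this family is uncertain. Among hosts with a KEGG term, 6.71% gave a member, against 29 of 137 hosts annotated to cAMP signalling, 15 of 67 to antifolate resistance, 22 of 125 to focal adhesion and 10 of 190 (5.26%) to endocytosis. Terms can share hosts, and how far the multidrug resistance-associated protein 4-like genes enter them was not examined.

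Some long circles were listed under a pair of identifiers whose starts differ by 1 bp and whose ends are the same. There were 22 such pairs, with 43 members, and 5.42% of the members had a partner within 1 bp, against 17.0% of circRNAs with 4 to 9 exons. In 70 cases a library had reads of a pair, and in none of them did it have reads of both. For 8 of the 22 pairs the identifiers also lay in different groups. All of these 8 but the PICALM pair of circRNA36224 and circRNA20126 had reads in only 2 libraries, 1 for each identifier. Among the 11 pairs read in 3 or more libraries when summed, only that PICALM pair was split so. A link of identifier to group was not tested. LRRFIP1 circRNA32178, which starts at 116679275, had 11 reads in P-Buffalo 1, and its partner circRNA19162 had the 445 reads of C-Buffalo 2. VPS50 circRNA35834 had 1 read in P-Buffalo 1, and its partner circRNA19497 had 111 in C-Buffalo 2. ANKRD27 circRNA25222, from 42879252 to 42891629, had 21 reads in C-Buffalo 3 and 36 in P-Buffalo 2, and circRNA12905, from 42879253, had 13 and 3 in C-Buffalo 1 and 2 and 42 and 30 in P-Buffalo 1 and 3. Together the ANKRD27 pair was thus read in all 6 animals, and its summed log2 fold change was 1.34 ± 0.81 (SE; edgeR, adjusted p = 0.830). With all circRNAs within 1 bp summed, the difference of the shares of long circles between the groups, 0.663 percentage points, was almost that of the single rows.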

How the data were processed

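For every circRNA and library the authors deposited a count of back-splice reads, not normalized, and a signal, SRPBM (spliced reads scaled to mapped reads). In the paper, reads were cleaned with Cutadapt and FastQC, mapped to ASM312139v1 with Bowtie2, Tophat2 and Tophat-fusion, and circRNAs assembled with CIRCExplorer and CIRI. The submitters' notes list fastp, edgeR, HISAT2, StringTie, HOMER and ChIPseeker with GRCh38.p10 instead, and the sources used here do not say which of these produced the table.

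Members and gene lists were chosen with earlier results of these data known. A circRNA was detected at 1 read. Counts of the whole table were tested with edgeR 4.0.16 in R 4.3.3 (quasi-likelihood, TMM, default filter, Benjamini-Hochberg), and host sums (10 or more exons, fewer, not exonic, without intergenic rows) the same way. Shares and class ratios were compared by exact permutation over libraries in Python 3.11.15 with scipy 1.17.1. Folds against a group at 0 used 3 counts over the group and cover counting error only. The steps were tested on simulated data.

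Named were the 8 members of highest mean CPM, those with the most exons (4 of all members, 4 of those read in all 6 libraries), 8 hosts with most members, non-overlapping members (6 per direction) and host sums (4) of smallest p, up to 3 members per list, 4 pairs within 1 bp and 6 hosts with over 50% of exonic counts in members. TRAF7, LOC102405871, the hosts of the 7 circles read in all 3 pregnant animals alone, LRRFIP1 and VPS50 as sums, PTPRC as a sum, TOPBP1, CHEK2, LOC102415279 and the KEGG terms were chosen after their values were seen. Alternatives were RLE factors, no filter, a mean count of at least 20, DESeq2 1.42.0, limma 3.58.1 on log2(SRPBM + 1), a block for the replicate number, each library left out, thinning, 2 reads for detection, limits of 9 and 12 exons and sums within 1 bp. No sequence was used, as a genome of this build was not at hand. A result that the naming rule includes is withheld and not reported here.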

Additional observations from a re-analysis of the deposited data

How the results depend on the processing

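No member was called at an adjusted p in edgeR's test with RLE factors, a mean count of at least 20, the replicate block, circRNAs within 1 bp summed or any library left out, nor by limma. Without a filter edgeR called 8 of the 793 members (1.01%, against 1.05% of all circRNAs): 7 were lower, with all reads but 1 in C-Buffalo 2, and 1, circRNA27870 of PICALM, was higher. DESeq2 called 3 (0.378%, against 0.277%), all lower and read in C-Buffalo 2 alone (VPS50 circRNA19497, ADHFE1 circRNA19839, PER3 circRNA20009). Members at an unadjusted p under 0.05, 3 in the report, were 17 without a filter (10 higher, 7 lower) and 11 with DESeq2 (8 higher, 3 lower). These were 2.144% and 1.387% of the members, against 3.701% and 1.572% of all circRNAs. At a mean count of at least 20 there were 5 (3 higher, 2 lower), or 45.45% of the members tested, against 3.62%. That filter can be passed through 1 library alone. With 1 library left out there were 5 to 8, where more members passed the filter (20 to 33). These were 18.18% to 29.63% of the members tested, against 3.718% to 9.136% of all circRNAs tested. A member that passes a filter only through the group where it is high has its direction set by the filter. The shares among members that passed a filter are therefore a description only. Host sums called, 0 in the report, were 6 of 535 without a filter (1.12%, against 1.081% of all sums) and 1 with DESeq2 (0.187%, against 0.0998%), all lower. Host sums at an unadjusted p under 0.05, 4 in the report, were 22 without a filter (15 higher, 7 lower). With DESeq2 they were 18 (16 higher, 2 lower). These were 4.112% and 3.364% of the host sums, against 5.613% and 3.351% of all sums. Of all sums, 161 were higher and 514 lower without a filter, and 160 and 243 with DESeq2. With 1 library left out there were 3 to 15, the last without C-Buffalo 3. These were 13.64% to 48.39% of the host sums tested, against 3.115% to 11.007% of all sums tested. They too are a description only, as these sums passed a filter. The log2 fold change of MINDY3 circRNA11995, −0.14 in the report, was 0.0056 with the replicate block and ran from −0.55 to 0.18 with 1 library left out, with 0.18 without C-Buffalo 2 and 0.07 without P-Buffalo 2. The log2 ratio of reads per detected circRNA against 4 to 9 exons ran from −2.05 to −1.81, and the difference in the share read in another library from −34.3 to −31.0 points, with 1 library left out. The exact permutation test over 5 libraries can then give no less than p = 0.0625. The difference between the groups in the share of detected circRNAs ran from 0.502 to 0.794 points, and in the share of reads from 0.0886 to 0.145.

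The replicate numbers are names: same-numbered libraries of the groups had correlations of deviations of −0.108, −0.0529 and −0.0330. With the replicate number as a block, 0 members were called, and 3 had an unadjusted p under 0.05 (18.75%, against 1.79% of all circRNAs tested). These 3 were the PICALM circles whose direction the filter had set. Host sums at an unadjusted p were 2 (11.8%, against 2.47% of all sums).

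Levels of single members rest on few reads, and 777 of 793 did not pass the default filter. With 3 animals per group there can be no exact p between groups below 0.1.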
